A study of Homo sapiens with 6 samples.

Results

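The histone variants encoded by polyadenylated messages were followed in SH-SY5Y cells exposed to manganese. The genes are H2AZ1, H2AZ2, H3-3A, H3-3B, MACROH2A1, MACROH2A2, H2AX, H1-10 and H2AJ. Their members on the array are all probe sets annotated to exactly 1 gene symbol that is among these 9, older symbols included. That gave 23 probe sets of 49293, and 9 genes of 18132. Manganese-exposed cultures (3 arrays) received 100 µM manganese for 24 h, a dose that the labels set at LC50 divided by 5, and control cultures (3 arrays) were untreated. All were SH-SY5Y, an established line from a human neuroblastoma, a tumour of the sympathetic nervous system, kept in serum-containing medium, and the labels name no genetic change and no vehicle. Arrays of a group are called biological replicates in the labels, which do not say how the cultures were kept apart, so p-values measure the spread between these arrays. The question is whether manganese changes the messages of the variants.

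Most histone protein is made in S phase from clustered genes whose messages end in a stem-loop and carry no poly(A) tail. The variant genes lie outside those clusters, are mostly spliced and polyadenylated, and are expressed through the cell cycle, so that their proteins can replace the S-phase histones in chromatin at any time. H2AX is a special case, since its message can end either in a stem-loop or in a poly(A) tail. In neurons, which no longer divide, H3.3 is the main H3 supplied to chromatin.

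No variant gene changed at the threshold. Among the 20 member probe sets that passed the filter on dim signals, 0 passed a Benjamini-Hochberg adjusted p of 0.05 in limma, and 0 had an unadjusted p under 0.05. Over all 29871 probe sets tested the call rate was 0.107% (0.104% higher in manganese and 0.00335% lower, that is 31 and 1 probe sets), and 12.5% had an unadjusted p under 0.05. Adjusted p-values of the 20 ran between 0.517 and 0.995. No member probe set had manganese and control arrays that did not overlap, against 19.0% of all probe sets tested. The log2 fold changes, manganese minus control, lay between -0.33 at a probe set of H2AZ1 and 0.26 at a probe set of H3-3B. Over the 20 member probe sets tested the median log2 fold change was 0.035, beside 0.012 over all probe sets tested, and 12 of the 20 were positive, beside 52.7% of all. Over all 23, dim ones included, it was 0.051 with 14 positive. By gene, taking for each the probe set with the highest mean, the median was 0.037 over the 8 genes tested, beside 0.020 over the 13407 genes tested. With the untested H3-3A it was 0.053 over the 9 genes. The widest 95% intervals reached -0.86 for H2AZ1 and 0.91 for H3-3B. As folds, that H2AZ1 interval ran from 0.553 to 1.14 and that H3-3B interval from 0.768 to 1.87.

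**Figure D1:**
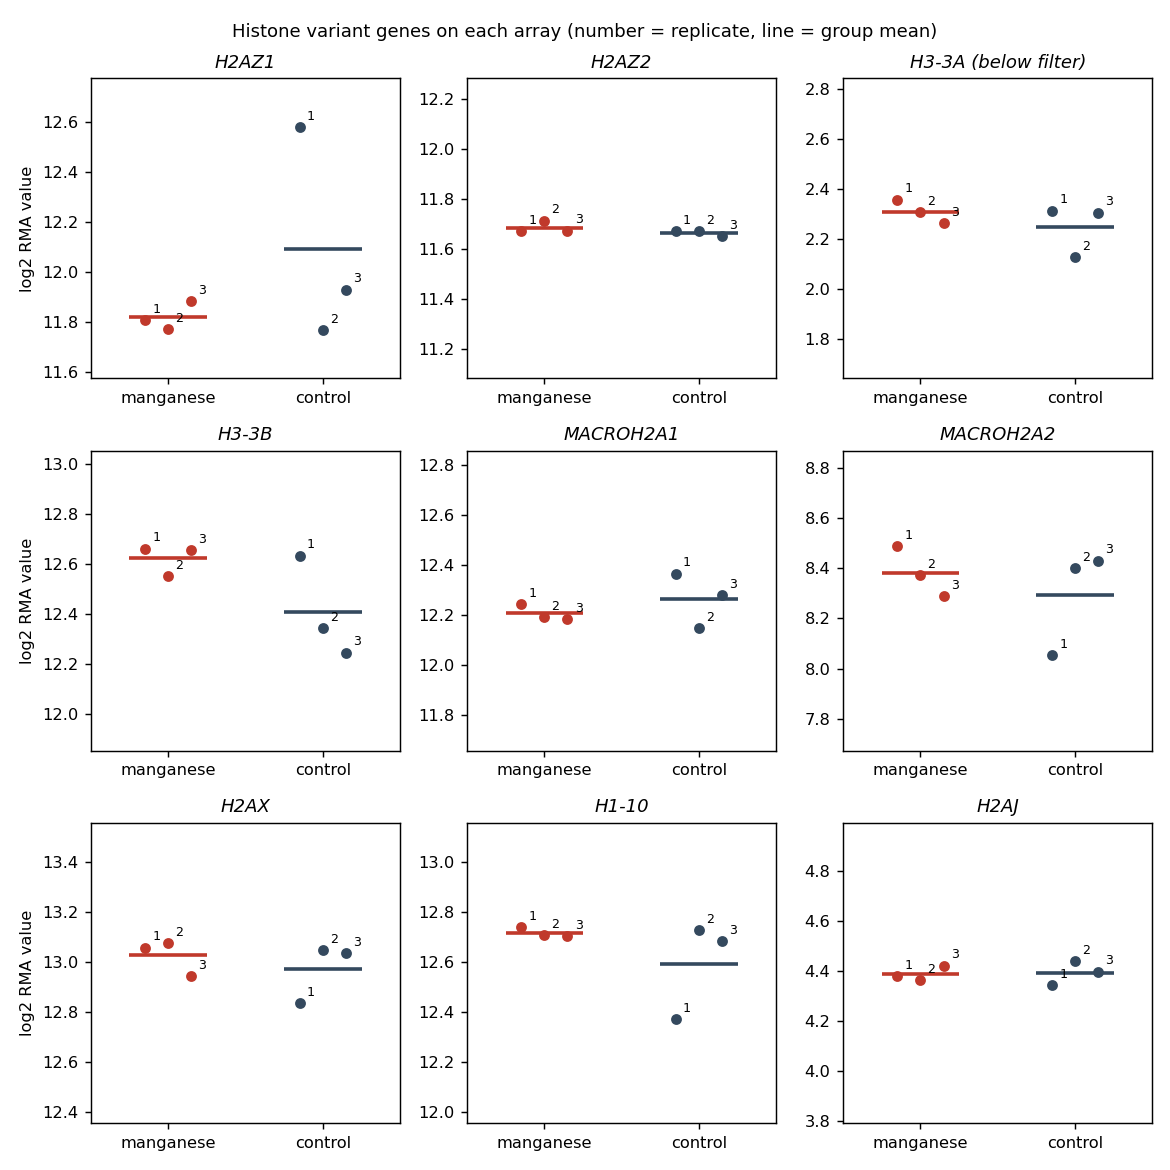
Log2 RMA value of each variant gene on the 6 arrays, by the probe set with the highest mean, manganese left and control right in each panel, with points numbered by replicate and a line at the group mean. Every panel spans the same log2 range around its own level, and the largest gap within a group is that between control 1 and the other controls for H2AZ1.

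The arrays themselves differed before any variant gene was considered. The 12 probe sets of poly(A) spike-in RNA averaged 7.80 to 7.91 on the manganese arrays, against 6.14, 7.79 and 5.81 on controls 1, 2 and 3, so among the controls only control 2 matched the exposed arrays in spike-in signal. Control 1 correlated with the other arrays at r = 0.967 to 0.980 across probe sets, which are not independent replicates. The GAPDH 3' minus 5' difference was 0.69 to 0.73 on manganese arrays and 0.67 to 0.72 on control arrays. Whether spike-in level or control 1 contributed to a result was not tested beyond the values given beside it. Of 12 noradrenergic neuroblastoma markers, 11 had a probe set and all 11 lay above the 40th percentile of the array on 6 of 6 arrays. Their summed level was 14.78 to 14.86 on manganese arrays and 14.94 to 15.08 on control arrays (log2). Of 10 mesenchymal markers 7 were tested (summed level 12.11 to 12.14 in manganese, 11.99 to 12.22 in control), with COL3A1, LUM and YAP1 below that percentile on every array and TWIST1 above it at means of 12.02 in manganese and 12.01 in control. Epithelial markers (4 of 6 tested) summed to 8.50 to 8.57 in manganese and 7.996 to 8.50 in control, with EPCAM and CDH1 below that percentile on every array. Blood markers (3 of 6 tested) summed to 7.73 to 7.80 in manganese and 7.64 to 7.68 in control, with PTPRC and CD14 below it on every array. Each sum takes in all markers of its list with a probe set, also those too dim to test.

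H2A.Z marks active promoters and regulatory elements, and 2 genes encode it. H2AZ1, the more studied of the pair, read 11.81, 11.77 and 11.88 on the manganese arrays, against 12.58, 11.77 and 11.93 on the control arrays. The manganese values sat within the control range, whose upper end was control 1 by itself. The group means were 11.82 ± 0.06 in manganese and 12.09 ± 0.43 in control (SD, n = 3 each), a log2 fold change of -0.27 (95% interval -0.73 to 0.19, limma adjusted p 0.600). The other H2AZ1 probe sets gave -0.21, -0.31 and -0.33, and control 1 exceeded the mean of controls 2 and 3 by 0.73 to 0.87 at all of them. Without control 1 the H2AZ1 log2 fold change was -0.028 (95% interval -0.26 to 0.21), and against control 2 alone it was 0.053. At the H2AZ1 probe set with the least spread among manganese arrays, the manganese arrays read 11.81, 11.82 and 11.82, against 12.54, 11.67 and 11.86 in control.

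H2AZ2, which encodes a nearly identical H2A.Z, read 11.67, 11.71 and 11.67 in manganese, against 11.67, 11.67 and 11.65 in control. These 6 values were the tightest of any variant gene, and the groups overlapped. The log2 fold change was 0.020 with a 95% interval from -0.20 to 0.24. At the other tested H2AZ2 probe sets it was 0.0024, 0.073 and -0.19. The last of these read 7.54, 7.85 and 8.09 in manganese, against 8.36, 7.85 and 7.83 in control, and its spread among the manganese arrays (SD 0.28) was the widest of any tested member. The remaining H2AZ2 probe set lay below the 40th percentile on every array, at means of 3.57 in manganese and 3.38 in control.

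H3.3 is the replacement H3, placed at active genes by the HIRA complex and at telomeres and repeats by DAXX and ATRX, and H3-3A and H3-3B encode the same protein. H3-3B read 12.66, 12.55 and 12.66 in manganese, against 12.63, 12.35 and 12.25 in control. All manganese arrays lay above controls 2 and 3, while control 1 fell between manganese 2 below it and the other manganese arrays above it. Its group means were 12.62 ± 0.06 in manganese and 12.41 ± 0.20 in control (SD, n = 3 each), a log2 fold change of 0.21 (SE 0.13, 95% interval -0.08 to 0.51, limma adjusted p 0.517), the lowest adjusted p of the family. The other H3-3B probe sets gave 0.11, 0.22 and 0.26. At the dimmest of them the manganese arrays read 8.11, 8.13 and 8.14, against 8.62, 7.49 and 7.49 in control. That probe set shows the pattern at its clearest, with 3 close manganese values between control 1 above and a matched pair of controls below.

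Left against controls 2 and 3 only, H3-3B was higher by 0.26 to 0.64 at its 4 probe sets. Their limma unadjusted p ran from 0.00014 to 0.043 and adjusted p from 0.0721 to 0.355, so none passed in that fit either. These 4 were the only ones of the 20 tested members under an unadjusted p of 0.05 there, beside 3992 of all 29871 probe sets. That fit called 33 probe sets higher and 3 lower. Against control 2 alone the H3-3B differences were 0.17 to 0.64, and the lowest adjusted p over all members was 0.401. A limma fit with array weights called 4 of the 20 tested member probe sets, all of H3-3B, at log2 fold changes of 0.30 to 0.60 and adjusted p of 0.0122 to 0.0417. It also called 5364 of all 29871 probe sets tested, a share near that of the members. In that fit control 1 had a weight of 0.178 and control 3 of 5.16. The probe sets of H3-3B share one message and so are not independent. Their names end in _x_at or _s_at, Affymetrix's marks for probes that may read related transcripts. H3-3B has near-identical copies, so the signal may hold more than H3-3B. The brightest probe sets of H2AZ2, MACROH2A1, H1-10 and H2AJ carry these endings too, as do some of H2AZ1. Those signals may therefore hold related transcripts as well.

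H3-3A had 1 probe set with a single symbol, and it gave no usable level. It read 2.36, 2.31 and 2.27 in manganese, against 2.32, 2.13 and 2.31 in control, below the 40th percentile (4.37 to 4.40) on all 6 arrays. It was therefore not tested. The array carries 3 more probe sets annotated to H3-3A jointly with the pseudogene H3P6, which fall outside the rule. They read 13.06 to 13.34 in manganese and 13.08 to 13.44 in control, with log2 fold changes of -0.10, -0.0077 and 0.042, and cannot be assigned to either gene. A probe set shared by H3-3B and H3-5 gave 0.15 (adjusted p 0.704).

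**Figure D2:**
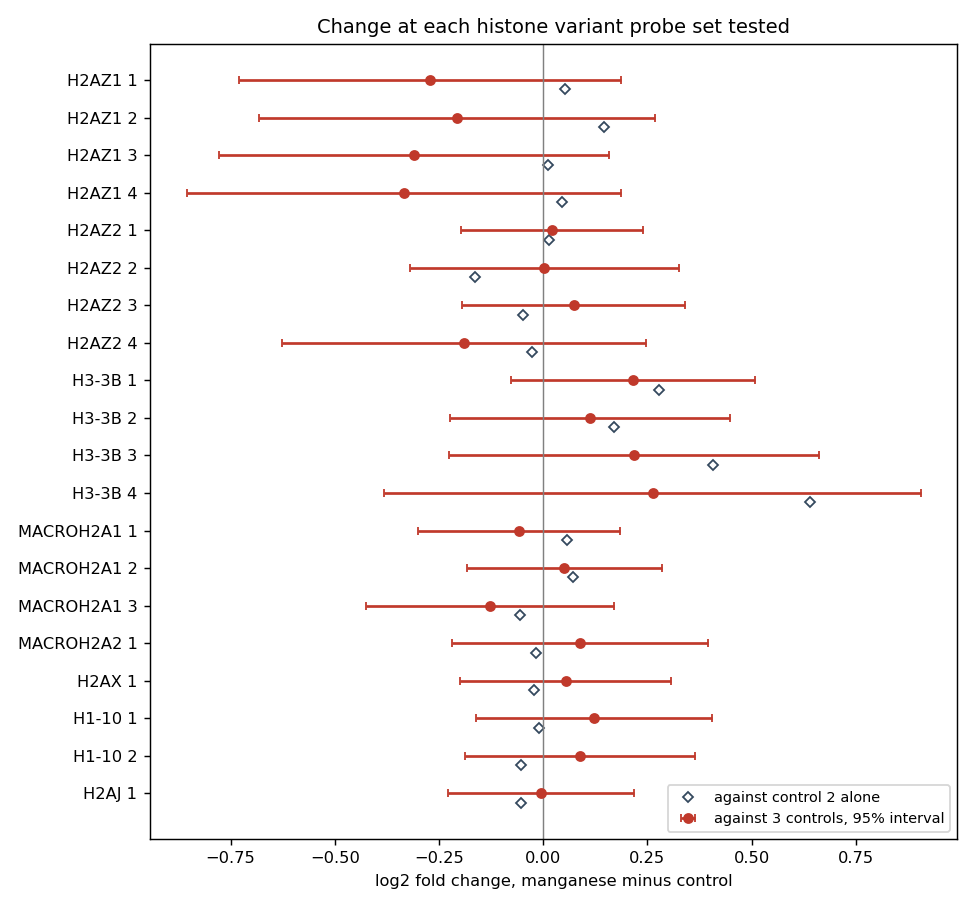
Log2 fold change, manganese minus control, at each of the 20 member probe sets tested, numbered within a gene from the highest mean level down; bars are 95% intervals from limma against 3 controls and open diamonds give the difference from control 2 alone. All 20 intervals cover 0, the 4 H2AZ1 points move to the right of 0 against control 2, and the 4 H3-3B points lie right of 0 in both.

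MacroH2A carries a large globular macrodomain and is linked to silent chromatin, including the inactive X chromosome. MACROH2A1 read 12.25, 12.19 and 12.19 in manganese, against 12.37, 12.15 and 12.28 in control, a log2 fold change of -0.058 (95% interval -0.30 to 0.18). All 3 manganese arrays lay inside the control range. Its other probe sets gave 0.051 (SE 0.10) and -0.13 (SE 0.13), with opposite signs. MACROH2A2, encoded by a separate gene, read 8.49, 8.37 and 8.29 in manganese, against 8.05, 8.40 and 8.43 in control. The low value was control 1, and the log2 fold change was 0.088 (95% interval -0.22 to 0.39).

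H2AX is the H2A form that is phosphorylated around DNA double-strand breaks, a protein mark that an expression array does not read. H2AX read 13.06, 13.07 and 12.94 in manganese, against 12.83, 13.05 and 13.03 in control, a log2 fold change of 0.053 (SE 0.11, 95% interval -0.20 to 0.31, limma adjusted p 0.871). The groups overlapped, with control 1 again the farthest from the rest.

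H1-10 encodes a linker histone, which binds DNA between nucleosomes. H1-10 read 12.74, 12.71 and 12.70 in manganese, against 12.37, 12.73 and 12.68 in control. Apart from control 1, all 5 arrays lay within a narrow band. The log2 fold change was 0.12 (95% interval -0.16 to 0.41), and 0.088 at its second probe set. Against control 2 these were -0.010 and -0.054. H2AJ, an H2A form that builds up in senescent human fibroblasts with DNA damage, was close to background. Its brighter probe set read 4.38, 4.36 and 4.42 in manganese, against 4.34, 4.44 and 4.40 in control, and lay above the 40th percentile on 3 of 6 arrays. The log2 fold change was -0.0057 (95% interval -0.23 to 0.22), and the second H2AJ probe set, at means of 3.51 in manganese and 3.64 in control, was too dim to test.

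The variants differed from each other mainly in how far control 1 stood from controls 2 and 3. At 7 of the 20 tested member probe sets this gap was at least 0.5 on the log2 scale, against 18.9% of all probe sets tested. The 7 were the 4 of H2AZ1, 2 of H3-3B and 1 of H2AZ2, all higher in control 1. Probe sets of the same gene are not independent, so these are not 7 separate results. MACROH2A2, H2AX and H1-10 went the other way, with control 1 lower by 0.36 for MACROH2A2, by 0.20 for H2AX and by 0.33 and 0.30 at the H1-10 probe sets. The manganese arrays were closer together than the controls at 19 of the 20 tested member probe sets, as they were at 72.6% of all probe sets. Leaving the 4 probe sets of H3-3B aside, manganese means of the tested members differed from the mean of controls 2 and 3 by at most 0.092.

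**Figure D3:**
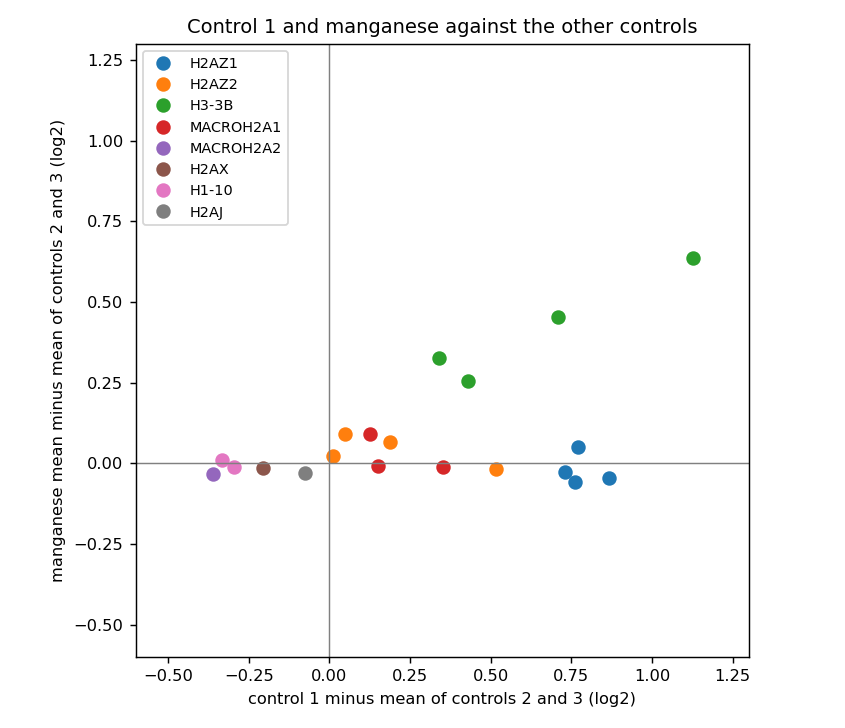
Each tested member probe set placed by control 1 minus the mean of controls 2 and 3 (horizontal, log2) and by the manganese mean minus the same controls (vertical, log2), coloured by gene. The 4 H2AZ1 probe sets lie far right but near 0 vertically, and the 4 H3-3B probe sets are the points that stand above 0.25 vertically.

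The clustered replication-dependent histone genes, whose messages normally lack a poly(A) tail, gave other values in the same fit. Of 61 such genes with a probe set 42 were tested, and 5 of them rose while 0 fell, against 0.127% of all genes called. The manganese and control arrays did not overlap at 30 of the 42, against 19.8% of all genes tested. Their median log2 fold change was 0.39 with 40 of 42 positive, beside 0.037 with 5 of 8 positive for the variant genes tested, and 54.1% positive over all genes. Against control 2 the medians were 0.27 for the clustered genes and 0.0013 for the variants. The 5 were H2BC9 (2.02), H2AC13 (1.61), H2AC20 (1.48), H2BC13 (1.42) and H3C10 (1.12). The probe sets of H2AC13 and H3C10 end in _s_at and so may read related transcripts too. H2BC9, a clustered H2B gene, read 10.76, 10.67 and 10.62 in manganese, against 8.34, 8.92 and 8.73 in control (limma adjusted p 0.00465). The tested set is partly fixed by the filter, since 7 of the 42, among them H2BC13 and H3C10, passed through manganese arrays and lay above the 40th percentile on no control array. Over the other 35 the median was 0.38, with 33 positive and 3 called. The count of 30 without overlap was not repeated over these 35, and at the 7 the filter itself favours groups that do not overlap. The replicate block ended 4 of the 5 calls (adjusted p 0.0599 to 0.0708), all but that of H2BC9. The spike-in term did not hold the measured signal but marked controls 1 and 3, so it left control 2 as the only control compared. With it the 5 calls ended, while the log2 fold changes were 1.77 for H2BC9 and 1.07 to 1.41 for the others. The rise of the clustered genes was already known from earlier work on these data, and the difference between the 2 classes of histone gene was not tested. Ribosomal RNA has no poly(A) tail either, and its probe sets averaged 11.64 to 12.15 for 18S in manganese and 11.05 to 11.90 in control, and 9.57 to 9.78 for 28S in manganese and 9.23 to 9.38 in control. Their part in the histone values was not tested.

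**Figure D4:**
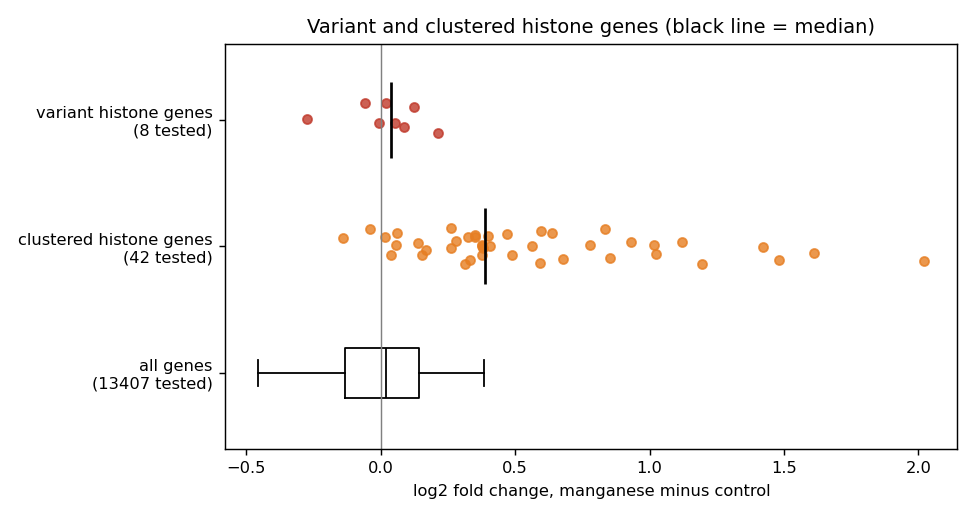
Log2 fold change, manganese minus control, of the 8 variant genes tested (top), the 42 clustered histone genes tested (middle) and all 13407 genes tested (bottom, a box from the 25th to the 75th percentile with whiskers to the 5th and 95th). Black lines mark medians of 0.037, 0.39 and 0.020, and all variant points lie between -0.27 and 0.21.

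Promoter sequence is shown for the variant genes at the 2 ends of the range, H2AZ1 and H3-3B, and for H2BC9, the clustered gene with the smallest p. CCAAT and TATA elements occur in some promoters of both classes of histone gene, though not in all. The windows run from 250 bases before to 50 bases after the start in RefSeq (GRCh38.p14), each written 5' to 3' on the gene's strand. They are chr4:99950226-99950525 on the minus strand for H2AZ1, chr17:75779730-75780029 on the minus strand for H3-3B, and chr6:26251364-26251663 on the plus strand for H2BC9. Capitals mark the CCAAT box, the TATA box TATAAA and the octamer ATTTGCAT, each searched on both strands with overlaps allowed.
H2AZ1: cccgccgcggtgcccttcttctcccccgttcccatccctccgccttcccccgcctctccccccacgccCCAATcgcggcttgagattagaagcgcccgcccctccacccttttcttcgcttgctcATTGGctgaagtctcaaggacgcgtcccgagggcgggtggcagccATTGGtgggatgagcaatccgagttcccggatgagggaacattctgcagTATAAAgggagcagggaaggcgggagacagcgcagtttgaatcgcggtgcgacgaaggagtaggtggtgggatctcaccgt
H3-3B: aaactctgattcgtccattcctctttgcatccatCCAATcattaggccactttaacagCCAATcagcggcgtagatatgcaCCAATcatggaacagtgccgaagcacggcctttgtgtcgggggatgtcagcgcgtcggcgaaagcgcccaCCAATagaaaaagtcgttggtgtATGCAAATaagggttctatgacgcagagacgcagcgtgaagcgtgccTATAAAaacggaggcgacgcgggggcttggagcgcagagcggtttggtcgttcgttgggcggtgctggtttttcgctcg
H2BC9: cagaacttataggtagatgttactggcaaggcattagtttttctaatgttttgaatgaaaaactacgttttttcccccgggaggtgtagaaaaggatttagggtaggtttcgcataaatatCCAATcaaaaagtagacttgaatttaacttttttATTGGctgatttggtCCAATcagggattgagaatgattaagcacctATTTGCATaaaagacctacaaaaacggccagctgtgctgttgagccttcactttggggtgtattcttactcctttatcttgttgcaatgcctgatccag
The H2AZ1 window held 3 CCAAT and 1 TATAAA. The H3-3B window held 4 CCAAT, 1 TATAAA and 1 octamer. The H2BC9 window held 3 CCAAT, 0 TATAAA and 1 octamer. All 9 variant genes had a promoter entry, with 13 windows in all. CCAAT was present in 9 of those 13, in 85.3% of the 68 windows of clustered histone genes and in 34.6% of all 35116 windows. TATAAA was present in 4 of the 13 (those of H2AZ1, H3-3B, H2AX and H1-10), in 66.2% of the clustered windows and in 11.5% of all. The octamer was in 1 of the 13, in 39.7% of the clustered windows and in 1.77% of all. The windows with CCAAT and TATAAA together were those of H2AZ1, H3-3B and H2AX, whose log2 fold changes were -0.27, 0.21 and 0.053.

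The genes that load, remove or read the variants gave 0 calls in limma as well, as did S-phase genes and other variant histones. Of the 61 genes tested in these 7 lists, 10 had an unadjusted p under 0.05 in limma. Beside them stand 12.5% of all probe sets in the same fit, and 1719 of all 13407 genes in a fit at gene level. For H2A.Z exchange, 14 of 14 genes were tested, with a median log2 fold change of -0.012 and 7 positive, or a median of -0.092 against control 2. ACTR6, an actin-related subunit of the SRCAP complex that loads H2A.Z, had the smallest p and averaged 9.25 in manganese and 7.92 in control, a log2 fold change of 1.34 (SE 0.34, adjusted p 0.230), or 0.73 against control 2. BRD8, a TIP60 complex subunit, was at -0.72 and EP400, the ATPase of that complex, at -0.48, or -0.24 and -0.098 against control 2. For the chaperones of H3.3, 8 of 8 were tested, with a median of -0.016, or 0.034 against control 2. HIRA averaged 8.08 in manganese and 8.87 in control, a log2 fold change of -0.79 (SE 0.28, adjusted p 0.343), and -0.92 against control 2. Its partners UBN1 and CABIN1 were at -0.29 and 0.17, or -0.14 and 0.097 against control 2. These HIRA complex values did not pass the test in either direction.

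Of the genes for macroH2A handling and the FACT complex 4 were tested, with a median of -0.084, whose sign turned against control 2 (0.053). SUPT16H, a FACT subunit, was at -0.61 but at -0.020 against control 2. SSRP1, its partner, was at -0.060, with 0.28 against control 2. HELLS, a chromatin remodeller of the SNF2 family, was at -0.11, with 0.11 against control 2. Of 12 genes that phosphorylate, read or erase the H2AX mark, 9 were tested, with a median of -0.24 and 2 positive. PRKDC, the DNA-dependent kinase that phosphorylates H2AX, was at -0.74 (adjusted p 0.366), BAZ1B at -0.54 and TP53BP1 at -0.42. Against control 2 these were -0.19, -0.079 and -0.078, and that list's median was -0.078.

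The replication-coupled chaperones (7 of 7 tested) had a median of 0.096, or 0.10 against control 2. TONSL was at 0.29, NASP at -0.36 and MCM2 at 0.28, and against control 2 these were 0.13, -0.040 and 0.10. S-phase genes (15 of 15 tested), which track dividing cells, had a median of 0.015 with 8 positive, or a median of 0.13 against control 2. CDT1, a replication licensing factor, was at 0.55 (adjusted p 0.327), UHRF1 at 0.32 and GINS2 at -0.33. Against control 2 these were 0.27, 0.27 and -0.042. Among other variant histone genes 4 of 12 were tested, with a median of -0.059, or 0.026 against control 2. CENPA, the centromeric H3, was at -0.18, H1-8 at 0.24 and H3-4 at -0.11, and none passed the threshold. Against control 2 these were -0.25, 0.12 and 0.0081.

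The arrays' pattern for H3-3B was most like that of 5 other genes by Pearson correlation over the 6 arrays, given as a description of arrays that share control 1. They were HNRNPD and MFAP1 (r = 0.996 and 0.995, both with Spearman rho = 1), GBE1 (0.993), PPM1A (0.989) and COIL (0.989). Spearman rho was 0.94 for GBE1 and for PPM1A, and 0.77 for COIL. The 5 were picked for the highest r among all genes searched, so a high r is built into the choice. Their log2 fold changes were 0.45, 0.30, 0.47, 0.40 and 0.28, and none passed the threshold.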

How the data were processed

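Total RNA of 6 SH-SY5Y cultures was profiled on one-colour Affymetrix arrays. The deposited values are log2 signals of 49395 probe sets. The submitters' processing notes name RMA and Affymetrix Expression Console. RMA corrects background, gives all arrays one intensity distribution and summarizes probes, so a change of total RNA shared by most genes is removed. Neither tool's version nor a genome build was stated, and none is given in the sources used here.

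The 102 Affymetrix controls were set aside. The platform annotation gave 1 symbol for 44988 probe sets, several for 1832 and none for 2473. Entrez numbers of 44961 matched RefSeq (GRCh38.p14) and 0 symbols changed. Probe sets above the 40th percentile of their array on at least 3 of 6 arrays (29871) were fitted in limma 3.58.1 (R 4.3.3; lmFit, eBayes) on group alone. P-values are two-sided and Benjamini-Hochberg adjusted over all of them, at an adjusted p of 0.05. A gene is given by its brightest passing probe set. Scripts were tested on simulated arrays.

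Members, lists and settings were chosen with earlier results of these data known. From each list, genes past the threshold are named, or else the 3 with the smallest unadjusted p. Levels of different probe sets are not compared. In bulk RNA, fewer cells and less RNA per cell cannot be told apart. Arrays have no counting depth, so their number limits precision. An exact permutation of 3 against 3 cannot go below p = 0.1.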

Additional observations from a re-analysis of the deposited data

How the results depend on the processing

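No member probe set was called under 16 of the 17 alternatives. The exception was array weights, which called 4 of 20, all of H3-3B, in a fit that called 5364 of all 29871 probe sets. The medians over member probe sets (-0.0018 to 0.091) and member genes (-0.0081 to 0.094) moved by less than the spread between arrays in the 14 alternatives run for each, though their sign could turn. The count over all probe sets was less stable. Against 32, it was 5364 with array weights, 642 with arrays centred on housekeeping genes and 15 with the replicate block. It was 5 with spike-in level as a term and 54 at an adjusted p of 0.10. A fit at gene level called 19 of 13407 genes, beside 17 of those genes by their brightest probe set in the main fit. Leaving out 1 array gave 0 (without manganese 2) to 75 (without control 2) probe sets called. It gave 13 without control 3, 7 without manganese 1 and 12 without manganese 3, and 33 higher with 3 lower without control 1. At an unadjusted p under 0.05 these fits gave 1831 to 6032. Of the calls 96.9% were higher in manganese, but 50.5% with housekeeping centring, 49.0% with array weights and 66.7% without control 2. Deviations of same-numbered arrays from their group means correlated at -0.29, 0.14 and -0.29, and not every array correlated best with its own number. With 3 arrays per group such deviations depend on each other, so these values cannot decide whether the cultures were paired by number. The replicate block ended the calls of H2BC13, H2AC20, H3C10 and H2AC13, at adjusted p of 0.0599 to 0.0708, and changed no call of a member. Of the clustered calls, H2BC9 was lost without manganese 1 or 2 and with the spike-in term, where its log2 fold change was 1.77. The other 4 were lost under more alternatives.

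Signs turned for members near 0. Against control 2 alone, and equally with a spike-in term, values were 0.053 for H2AZ1, 0.058 for MACROH2A1, -0.017 for MACROH2A2, -0.022 for H2AX and -0.010 for H1-10, and outside the family 0.11 for HELLS, 0.28 for SSRP1 and 0.0081 for H3-4. MACROH2A2 was -0.025 and CENPA 0.080 with array weights. H2AJ was 0.0081 with median centring and 0.035 with housekeeping centring. Leaving out 1 array gave -0.032 to 0.16 for MACROH2A2, -0.015 to 0.094 for H2AX, -0.031 to 0.018 for H2AJ, -0.22 to 0.043 for HELLS, -0.23 to 0.079 for SSRP1 and -0.24 to 0.031 for H3-4. For H2AZ1 it gave -0.43 to -0.028 and for H3-3B 0.13 to 0.33, with the lowest adjusted p at 0.254 and 0.229. Among the list genes named above, picked for their small p, array weights took 10 past the threshold (ACTR6, BRD8, EP400, PRKDC, BAZ1B, UBN1, SUPT16H, CDT1, UHRF1 and GINS2). That fit called 5364 of all 29871 probe sets. Housekeeping centring took ACTR6, BRD8, PRKDC and HIRA past it, and called 324 probe sets higher and 318 lower of 29871. The causes were not tested.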
